A study of Mus musculus with 18 samples.

Results

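MHC class II molecules display peptides of engulfed proteins to CD4+ T cells, and 7 genes of this machinery were followed: H2-Aa, H2-Ab1, H2-Eb1, Cd74, H2-DMa, H2-DMb1 and Ciita. They were taken by name, and the choice was made with earlier results of these data known. All 7 were found among the 46983 genes of each deposited table. H2-Aa and H2-Ab1 encode the alpha and beta chains of I-A, the class II molecule that C57BL/6 mice display. H2-Eb1 encodes the beta chain of I-E, whose alpha partner gene is defective in this strain. Cd74, the invariant chain, fills the groove and guides new class II molecules to endosomes. H2-DMa and H2-DMb1 encode the chains of H2-M, which exchanges the last piece of the invariant chain for peptide. Ciita, the class II transactivator, binds no DNA itself and switches these genes on from a complex of promoter proteins. Dendritic cells, macrophages and B cells carry class II constitutively or after interferon-gamma, whereas mouse T cells are not known to make it in quantity.

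Dendritic cells, CD8+ T cells and T helper (CD4+) cells had been sorted from tumours of MC38, a colon carcinoma line of the mouse, and their RNA was sequenced. Each sort held 3 libraries of mice given anti-PD-1 plus D18 and 3 of mice given anti-PD-1 alone, 18 libraries in all. The sources used here give D18 by code name alone, and anti-PD-1 is an antibody to an inhibitory receptor of T cells. All mice were C57BL/6 females, 6 weeks old when MC38 cells were placed under the skin of the flank. Mice bearing the tumours were pooled and divided into groups at an average tumour size of 100 mm3, on days 7 to 10. Both groups received 200 µg of anti-PD-1 per mouse into the peritoneum 2 times a week, and the D18 group also received 25 µg of D18 per mouse 1 time a week, for 2 weeks. All groups thus carried anti-PD-1, and no untreated tumour is analysed here. No source says whether the 3 libraries of a group come from separate mice, so every p-value measures the spread between these libraries, which may be technical. The question asked of each sort was whether D18 added to anti-PD-1 went with other levels of these genes.

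Libraries were shallow, with 11170 to 266392 reads assigned to genes, and several stood apart. D18 replicate 2 of the dendritic cell sort was the one with 11170 reads. Within the CD4+ T cell sort the summed level of 12 T cell markers was 4857, 4365 and 4356 CPM (reads of a gene scaled to the same library total throughout) with D18, against 59.3, 111 and 4430 CPM with anti-PD-1, so the anti-PD-1 libraries numbered 1 and 2 held almost no T cell RNA. The same list summed, in the dendritic cell sort, to 89.2, 269 and 4714 CPM with D18 and to 0, 4.50 and 2713 CPM with anti-PD-1. The 11 dendritic cell markers summed to only 94.4 to 504 CPM in that sort, beside 11549 to 38551 CPM of 14 macrophage markers. T cell markers were also low in the CD8+ T cell libraries numbered 3, at 3385 CPM with D18 and 2474 CPM with anti-PD-1, against 7352 to 11577 CPM in the other 4. Flt3 and Clec9a, defining dendritic cell genes, had 13, 1 and 3 reads and 9, 0 and 5 reads with D18 in the dendritic cell sort, against 0 reads in its 3 anti-PD-1 libraries. They were picked from the 11 markers after their values were seen. The whole list overlapped there, at 504, 448 and 354 CPM with D18, against 370, 94.4 and 251 CPM with anti-PD-1. Itgax, its only marker with enough reads to be tested in that sort, had a log2 change of 0.28 ± 0.63 (SE). Macrophage markers also summed to 4846 to 33618 CPM in the CD8+ T cell sort and to 7226 to 41539 CPM in the CD4+ T cell sort. Only the libraries numbered 1 and 2 with anti-PD-1, in every sort, held no read of the mitochondrial genes mt-Atp6, mt-Co2 and mt-Co3. That split leaves anti-PD-1 replicate 3 as the lone anti-PD-1 library on the D18 side of it in each sort, and treatment is set against that library alone in the values called within-split below.

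The promoters of class II genes are known for an X box and a Y box at a near fixed distance, which together seat the proteins that bring in the transactivator. H2-Aa and H2-Eb1 are shown because their reads moved together most closely across the libraries. In RefSeq windows of build GRCm38.p6, 300 bases long with 250 before the start, 4 of the 7 genes had an entry (H2-Aa, H2-Eb1, H2-DMb1 and H2-DMa), and H2-Ab1, Cd74 and Ciita had none. The letters GNAAC, as in an X box, followed 25 to 35 bases further by GATTGG, an inverted CCAAT as in a Y box, were searched on both strands, counting from first base to first base. The 120 bases before the start are given 5′ to 3′ with both motifs in capitals. H2-Aa lies at chr17:34287824-34287943 on the minus strand, and H2-Eb1 at chr17:34305747-34305866 on the plus strand.
H2-Aa: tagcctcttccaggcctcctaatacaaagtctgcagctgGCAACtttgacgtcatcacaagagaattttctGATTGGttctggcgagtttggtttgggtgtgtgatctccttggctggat
H2-Eb1: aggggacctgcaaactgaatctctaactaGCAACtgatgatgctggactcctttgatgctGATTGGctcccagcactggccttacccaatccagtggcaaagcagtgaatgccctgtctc

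The pair of motifs began 81 and 49 bases before the start of H2-Aa, 91 and 60 before that of H2-Eb1, and 94 and 62 before that of H2-DMb1. In these 3 windows the motifs lay 32, 31 and 32 bases apart. Neither of the 2 windows of H2-DMa held the pair. Among 4 other class II genes with a window, 3 held it, H2-Oa and H2-Ob among them. Of all 32851 promoter windows, 84.8% held GNAAC, 16.1% held GATTGG and 0.651% held the spaced pair. The distance range was chosen with these windows in view, and a match describes letters, not a bound site.

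**Figure D1:**
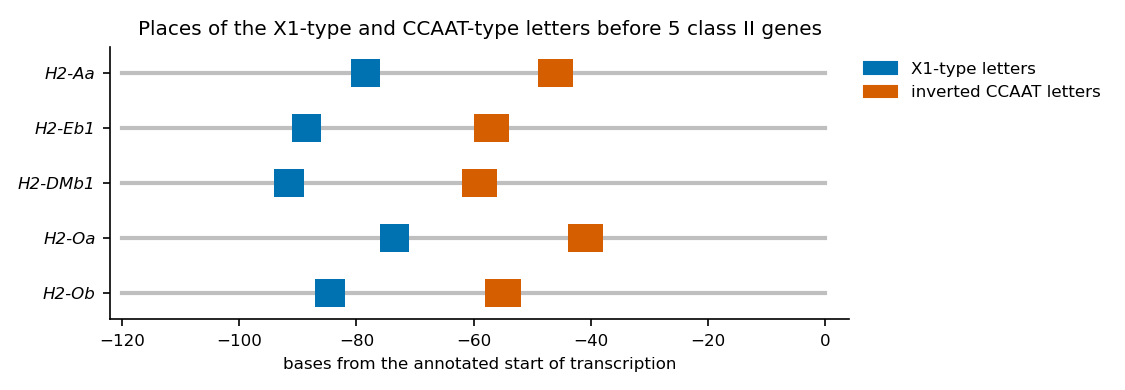
Places of the GNAAC letters (blue) and the GATTGG letters (orange) in the 120 bases before the annotated start of 5 class II genes, in bases from the start. The 2 motifs lie 32 bases apart in H2-Aa, H2-DMb1 and H2-Oa, 31 in H2-Eb1 and 29 in H2-Ob.

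In mm10 the 5 genes with names in H2 lie close together on chromosome 17, with H2-Aa at 34282744 to 34287823, H2-Ab1 at 34257689 to 34269419 and H2-Eb1 at 34305867 to 34316674. H2-DMa lies there at 34119541 to 34139101 and H2-DMb1 at 34153072 to 34160230. Ciita lies on chromosome 16 at 10480059 to 10528418. Of the 50-base windows in the exons of H2-DMb1, 22.7% also occur in its neighbour H2-DMb2, so reads of these copies may have been split or lost and the values of H2-DMb1 are uncertain. The share was 8.43% for H2-DMa, with Brd2, and 15.4% for Lyz2, with Lyz1. It was 0 for H2-Ab1, H2-Eb1 and Cd74.

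Class II transcripts were read in all 18 libraries, the T cell sorts included. The 7 genes took 0.0891% to 1.56% of a library's reads. H2-Aa, H2-Ab1, H2-Eb1 and Cd74 each had reads in every library, at medians over the 6 libraries of a sort of 1879, 1800, 2037 and 2156 CPM in the dendritic cell sort. In the CD4+ T cell sort these medians were 1551, 1460, 1385 and 1942 CPM, and in the CD8+ T cell sort 821, 945, 609 and 946 CPM. All 4 genes thus had their medians in the order dendritic, CD4+ T and CD8+ T cell sort. The ranges overlapped, since H2-Aa ran over 985 to 3098, 168 to 4692 and 89.5 to 2384 CPM in those sorts. No test was made between sorts, whose tables the authors normalised separately.

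Ranked by level per kilobase of exon in the dendritic cell sort, Cd74 came first with a median of 1284 CPM per kb, then H2-Eb1 with 1048, H2-Ab1 with 701 and H2-Aa with 495. The chains of H2-M followed at 98.9 CPM per kb for H2-DMb1 and 98.5 for H2-DMa, and Ciita was at 1.55. The length used joins all annotated exons of a gene, so the order depends on the annotation. It was 1679 bases for Cd74, 1944 for H2-Eb1, 2568 for H2-Ab1, 3798 for H2-Aa, 1681 for H2-DMb1 and 3448 for H2-DMa. By median CPM alone H2-Aa at 1879 lay above H2-Ab1 at 1800, and H2-DMa at 340 above H2-DMb1 at 166. The spread over libraries was wide enough (426.6 to 2169 CPM per kb for Cd74, 506.6 to 1341 for H2-Eb1) that these neighbours in the order overlapped. H2-DMb1 at 53.0 to 160 and H2-DMa at 0 to 130 CPM per kb also overlapped each other, and both lay below every dendritic cell library of Cd74, H2-Eb1, H2-Ab1 and H2-Aa.

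Ciita sat at the edge of detection. It had 5, 3 and 4 reads with D18 in the dendritic cell sort, against 0, 0 and 1 read with anti-PD-1. D18 replicate 2 was the one with 11170 reads, in which 3 reads amount to 269 CPM. It had 6 reads in D18 replicate 2 of the CD8+ T cell sort, 4 in D18 replicate 3 and 2 in anti-PD-1 replicate 3 of the CD4+ T cell sort, and 0 in the other 9 T cell libraries. Where no read was counted, up to 3 could have been missed, or 13.5 to 96.3 CPM over the 11 libraries without a read of Ciita, by counting error alone. With a mean under 10 normalised reads in each sort Ciita was not tested. H2-Ea-ps, the defective partner gene of H2-Eb1, had 0 reads in all 18 libraries.

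**Figure D2:**
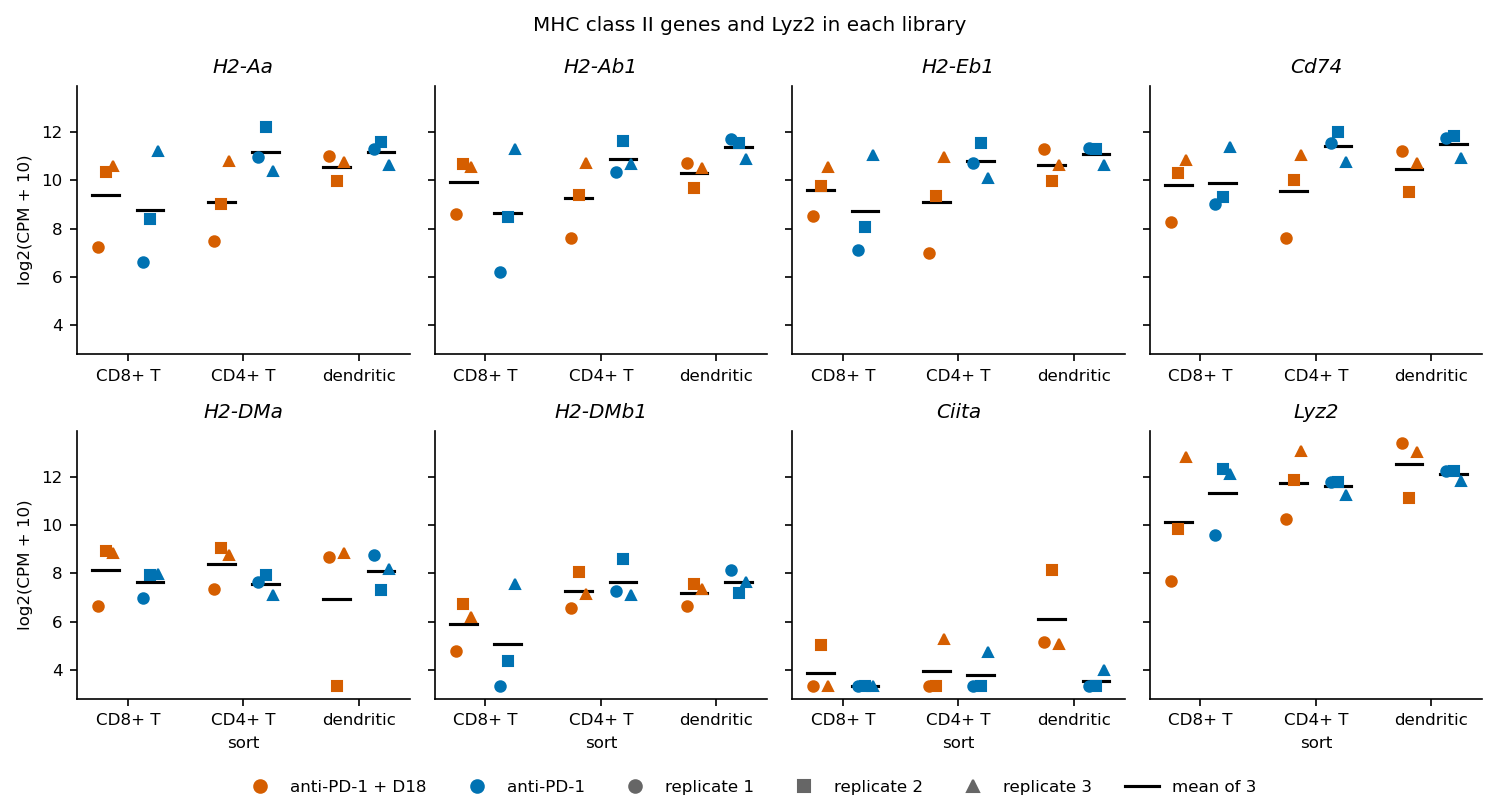
Level of the 7 class II genes and of Lyz2 in each library, as log2(CPM + 10), with the anti-PD-1 plus D18 libraries left of the anti-PD-1 libraries in each sort and a bar at the mean of 3. H2-Aa, H2-Ab1, H2-Eb1 and Cd74 show the same order of libraries in most panels, and Ciita lies at or near the floor, which is a CPM of 0.

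D18 was set against anti-PD-1 within each sort with limma on log2(normalised reads + 1), after each library's reads had been divided by its size factor. Testing was limited to a mean of 10 or more normalised reads, and adjusted p-values (Benjamini-Hochberg) were taken over all of them. In no sort did a class II gene or any other gene pass an adjusted p of 0.05, so the background share called was 0% of 1569 genes in the CD8+ T cell sort, 0% of 966 in the CD4+ T cell sort and 0% of 886 in the dendritic cell sort. At an unadjusted p under 0.05 limma had 130, 100 and 61 genes. H2-Aa, Cd74 and H2-Ab1 were among the 100 of the CD4+ T cell sort, with unadjusted limma p of 0.0235, 0.0246 and 0.0300. By limma-voom 0, 0 and 71 genes were called, and the 71 held no class II gene named above. In bulk libraries, fewer cells of a type and less RNA per cell cannot be told apart.

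In the CD4+ T cell sort H2-Aa, H2-Ab1, H2-Eb1 and Cd74 were lower with D18 on average, by more than 2 log2 units each, but the groups overlapped and no adjusted p passed. H2-Aa had 168, 514 and 1755 CPM with D18, against 2004, 4692 and 1348 CPM with anti-PD-1. Cd74 had 185, 1027 and 2141 CPM with D18, against 2973, 4124 and 1743 CPM with anti-PD-1. D18 replicates 1 and 2 were low and D18 replicate 3 lay within the range of the anti-PD-1 libraries for both genes.

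The log2 change in the CD4+ T cell sort was -2.69 ± 0.97 (SE, n = 3 per group) for H2-Aa and -2.47 ± 0.91 for Cd74, each with an adjusted p of 0.453 in limma. H2-Ab1 was at -2.22 ± 0.85 and H2-Eb1 at -2.28 ± 1.02, with adjusted p of 0.453 and 0.471 in limma. The H2-M chains lay nearer 0, with H2-DMb1 at -0.98 ± 0.69 and H2-DMa at 0.22 ± 0.65. H2-DMa had 9, 16 and 58 reads with D18, against 29, 34 and 15 reads with anti-PD-1. Of the 6 genes tested, 5 lay below 0 and 0 had groups that did not overlap with D18 lower, where 9.21% of all genes tested had such groups. Their median was -2.25, against 0.03 over all genes tested.

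The low values of class II genes in the CD4+ T cell sort came with other markers. The anti-PD-1 libraries highest in H2-Aa, replicates 2 and 1, were those with 111 and 59.3 CPM of T cell markers. Macrophage markers summed to 7226, 24490 and 23919 CPM with D18 and to 41539, 23919 and 16533 CPM with anti-PD-1, with 13 or 14 of 14 markers read in each library. D18 replicate 1 was lowest in that sum, while D18 replicate 2, also low in class II genes, was second highest. The part of these cell types in the class II values was not tested. Within-split, against anti-PD-1 replicate 3, the log2 changes were smaller, at -1.38 for H2-Aa, -1.28 for Cd74, -1.50 for H2-Ab1 and -1.07 for H2-Eb1, and none passed. Without both libraries numbered 3, D18 replicates 1 and 2 face the pair with few T cell markers. The changes were then -4.24, -3.88, -3.37 and -3.87 in the same order. All 4 passed, with limma adjusted p of 0.0170, 0.0261, 0.0452 and 0.0263, among 34 genes called of 966 tested.

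All 6 genes tested in the dendritic cell sort lay below 0 with D18, in a sort where 69.1% of all genes tested did so. H2-Ab1 had 1694, 806 and 1453 CPM with D18, against 3396, 2999 and 1906 CPM with anti-PD-1. Cd74 had 2366, 716 and 1689 CPM with D18, against 3430, 3642 and 1947 CPM with anti-PD-1. For H2-Ab1 the CPM of the groups did not overlap, while its normalised reads did, and for Cd74 both overlapped. The share of all genes without overlap was not taken for CPM. By normalised reads 19.9% of all genes tested were lower with D18 without overlap.

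H2-Ab1 was at a log2 change of -1.56 ± 0.89 (SE, n = 3 per group), Cd74 at -1.49 ± 0.99, H2-DMa at -1.30 ± 1.34, H2-Aa at -1.08 ± 0.94, H2-Eb1 at -0.93 ± 0.92 and H2-DMb1 at -0.90 ± 0.61 in the dendritic cell sort. The smallest adjusted p of the 6 in limma was 0.551. Their median of -1.19 stood beside a median of -0.65 over all 886 genes. H2-DMb1 alone had normalised reads that did not overlap, all lower with D18, and 19.9% of all genes tested did the same. Without D18 replicate 2, the library with 11170 reads, the median of all genes was 0.06 and the changes were -0.99 for H2-Ab1, -0.75 for Cd74, -0.52 for H2-Aa, -0.35 for H2-Eb1 and -0.85 for H2-DMb1. H2-DMa, which had 76, 0 and 76 reads with D18 against 25, 33 and 48 with anti-PD-1, turned to 0.47 without that library. Without anti-PD-1 replicate 2, the library with 71.9% mitochondrial reads, the median of all genes was -0.68. The changes were then -0.91 for H2-Ab1, -0.75 for Cd74, -0.30 for H2-Aa, -0.26 for H2-Eb1, -0.59 for H2-DMb1 and -1.13 for H2-DMa. Without both libraries numbered 3, which hold the T cell reads of this sort, the 6 changes ran over -2.27 to -1.22 and none passed. The median of all genes was then -0.94. Within-split the 6 changes ran over -1.03 to -0.07, where the median of all genes was -0.72 and 78.0% of them lay below 0. H2-DMa alone, at -1.03, lay below that median.

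In the CD8+ T cell sort the class II genes differed more between libraries of 1 group than between the groups. H2-Aa had 143, 1310 and 1539 CPM with D18, against 89.5, 332 and 2384 CPM with anti-PD-1. H2-Eb1 had 358, 860 and 1500 CPM with D18, against 128, 258 and 2126 CPM with anti-PD-1. Replicate 1 was lowest and anti-PD-1 replicate 3 highest, and the groups overlapped fully.

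H2-Ab1 was at a log2 change of 1.18 ± 1.31 (SE, n = 3 per group) in the CD8+ T cell sort, H2-Eb1 at 0.78 ± 1.13, H2-Aa at 0.55 ± 1.38, H2-DMa at 0.40 ± 0.70 and Cd74 at -0.19 ± 0.95. Adjusted p in limma ran over 0.775 to 0.961. None of the 5 genes tested had groups that did not overlap, against 6.88% of all genes with D18 higher and 7.65% with D18 lower. Same-numbered CD8+ T cell libraries moved together, and with the number as a block limma called 20 genes, 9 higher and 11 lower with D18, of which 0 were class II genes. Blocked values of the 5 genes had adjusted p of 0.332 to 0.787 in limma. Within-split the direction was turned for 4 of them, with -2.17 for H2-Aa, -1.70 for H2-Ab1, -1.80 for H2-Eb1 and -0.20 for H2-DMa, and Cd74 was at -1.92. Without both libraries numbered 3 the changes were 2.17 for H2-Ab1, 1.45 for H2-Eb1, 1.18 for H2-Aa, 0.21 for H2-DMa and 0.025 for Cd74, and none passed. H2-DMb1, with 1, 26 and 5 reads with D18 and 0, 2 and 26 with anti-PD-1, had too few reads to be tested there.

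The change in 1 sort was also set against that in another, with each library centred within its sort. For H2-Aa the change in the CD4+ T cell sort minus that in the CD8+ T cell sort was -3.24 ± 1.76 (SE), with an adjusted p of 0.995 in limma. No class II gene passed in any of the 3 contrasts between sorts, with adjusted p of at least 0.799. The contrasts called 0 of 816, 744 and 916 genes, and 6, 21 and 7 of them had an unadjusted p under 0.05.

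**Figure D3:**
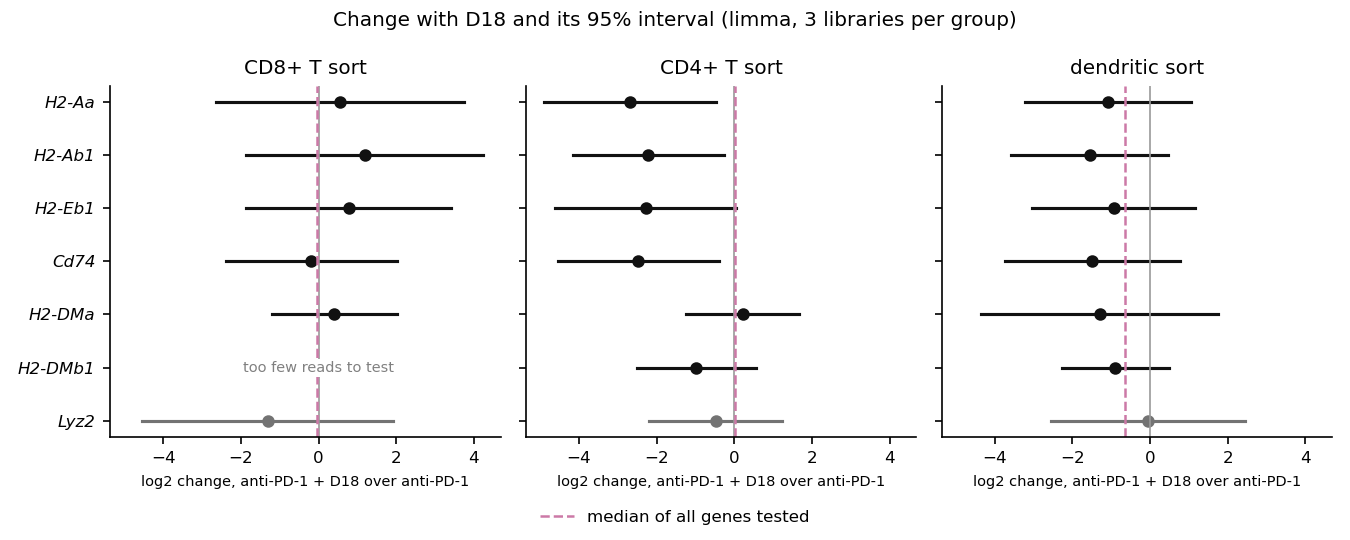
Log2 change of each class II gene tested, and of Lyz2 in grey, for anti-PD-1 plus D18 over anti-PD-1 in each sort, as points with limma's 95% interval (3 libraries per group). The dashed line is the median of all genes tested, at -0.03, 0.03 and -0.65 from left to right, and the intervals cover 0 except those of H2-Aa, H2-Ab1 and Cd74 in the CD4+ T cell sort, whose adjusted p is 0.453.

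A ratio of reads within a library needs no size factor. Each class II gene was therefore also divided by Lyz2, the lysozyme of macrophages and other myeloid cells, which had reads in all 18 libraries. In the CD4+ T cell sort H2-Aa reads came to 13.9%, 13.7% and 20.6% of Lyz2 reads with D18, against 56.5%, 132% and 55.9% with anti-PD-1. Cd74 reads came to 15.3%, 27.4% and 25.1% with D18, against 83.8%, 116% and 72.4% with anti-PD-1. The groups did not overlap for either gene. Lyz2 itself stood at 1210, 3755 and 8536 CPM with D18, against 3547, 3542 and 2409 CPM with anti-PD-1. D18 replicate 3, highest in Lyz2, had more H2-Aa than anti-PD-1 replicate 3, at 1755 against 1348 CPM. It also had more Cd74, at 2141 against 1743 CPM. The part of Lyz2 and of cell make-up in these ratios was not tested.

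The mean log2 ratio to Lyz2, with 1 read added to each gene, was lower with D18 by 2.18 ± 0.44 (SE) for H2-Aa in the CD4+ T cell sort, which is 4.54-fold. Cd74 was 3.94-fold lower, H2-Eb1 3.41-fold and H2-Ab1 3.29-fold. These 4 genes of 6 had groups that did not overlap, where 5.39% of all genes tested in that sort had a lower ratio to Lyz2 without overlap. Each had p = 0.1 in a two-sided exact permutation test, the smallest that 3 against 3 allows, and 0.3 after adjustment over the 18 tests made. H2-DMa at 0.74 and H2-DMb1 at -0.44 overlapped. Without both libraries numbered 3 the differences of the 4 genes ran over -2.55 to -1.69. The median over the 6 genes was -1.74, against 0.55 over all genes set against Lyz2.

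In the dendritic cell sort H2-Aa reads came to 18.9%, 44.0% and 20.8% of Lyz2 reads with D18, against 52.1%, 64.5% and 44.0% with anti-PD-1, and the groups touched. Cd74 reads came to 21.8%, 32.0% and 20.6% with D18, against 70.3%, 75.8% and 54.5% with anti-PD-1. H2-Ab1 and Cd74 had groups that did not overlap, with log2 differences of -1.48 ± 0.42 and -1.41 ± 0.28 (SE, n = 3 per group), and 3.73% of all genes tested had such a lower ratio. Both had p = 0.1 by exact permutation and an adjusted p of 0.3. Without D18 replicate 2 they were at -1.88 and -1.64. H2-Aa at -1.01, H2-Eb1 at -0.87, H2-DMb1 at -0.74 and H2-DMa at -0.51 overlapped. The median over the 6 genes was -0.94, against -0.32 over all genes. The values came with Lyz2 itself at 10848, 2238 and 8210 CPM with D18, against 4876, 4802 and 3573 CPM with anti-PD-1.

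The CD8+ T cell sort went the other way on average but without separation. H2-Aa reads came to 72.7%, 145% and 21.2% of Lyz2 reads with D18, against 11.7%, 6.56% and 54.6% with anti-PD-1, and D18 replicate 1 rests on 8 reads of H2-Aa beside 11 of Lyz2. The log2 differences were 2.48 for H2-Ab1, 2.16 for H2-DMb1, 2.08 for H2-Eb1, 1.87 for H2-Aa, 1.74 for H2-DMa and 1.12 for Cd74. All 6 groups overlapped, as 0 class II genes were among the 0.191% of genes with a higher ratio to Lyz2 without overlap. Within same-numbered pairs H2-DMa was higher with D18 in all 3, at 45.5%, 52.3% and 6.17% of Lyz2 reads with D18, against 15%, 4.68% and 5.59% with anti-PD-1. Its exact sign-flip permutation over the pairs gave p = 0.25, the smallest that 3 pairs allow, and the other 5 genes gave 0.5 or 0.75. Without both libraries numbered 3 the 6 differences ran over 2.32 to 4.44. The median over all genes was 1.30, so most genes had a higher ratio to Lyz2 with D18 in this sort.

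The size of the Lyz2 ratio change was compared between sorts with an exact permutation of treatment within each sort, in 400 arrangements and 18 tests, with no use of the replicate numbers. H2-Aa had the smallest p, 0.01, with a change of -2.18 in the CD4+ T cell sort and 1.87 in the CD8+ T cell sort, a difference of -4.05. After adjustment it had p = 0.108 in that exact test, as did H2-Ab1, H2-Eb1 and Cd74 in the same pair of sorts, so no difference between sorts passed. The summed macrophage list was also put in place of Lyz2. Differences of H2-Aa, H2-Ab1, H2-Eb1 and Cd74 became smaller in size in the CD4+ T and dendritic cell sorts. None of their groups stayed separate there. In the CD4+ T cell sort the differences were -1.41 for H2-Aa, -0.94 for H2-Ab1, -0.99 for H2-Eb1 and -1.20 for Cd74, with exact permutation p of 0.2, 0.2, 0.3 and 0.2. H2-DMa rose to 1.52 in that sort, with an exact permutation p of 0.1. In the dendritic cell sort H2-Ab1 was at -0.56 and Cd74 at -0.48, with exact permutation p of 0.3 and 0.7, and H2-Aa at -0.08. The differences grew in the CD8+ T cell sort, to 2.31 for H2-Aa, 2.92 for H2-Ab1, 2.52 for H2-Eb1 and 1.57 for Cd74. There H2-Eb1, and H2-DMa at 2.18, were higher with D18 without overlap, each with an exact permutation p of 0.1. The share of all genes without overlap was not taken for this list.

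**Figure D4:**
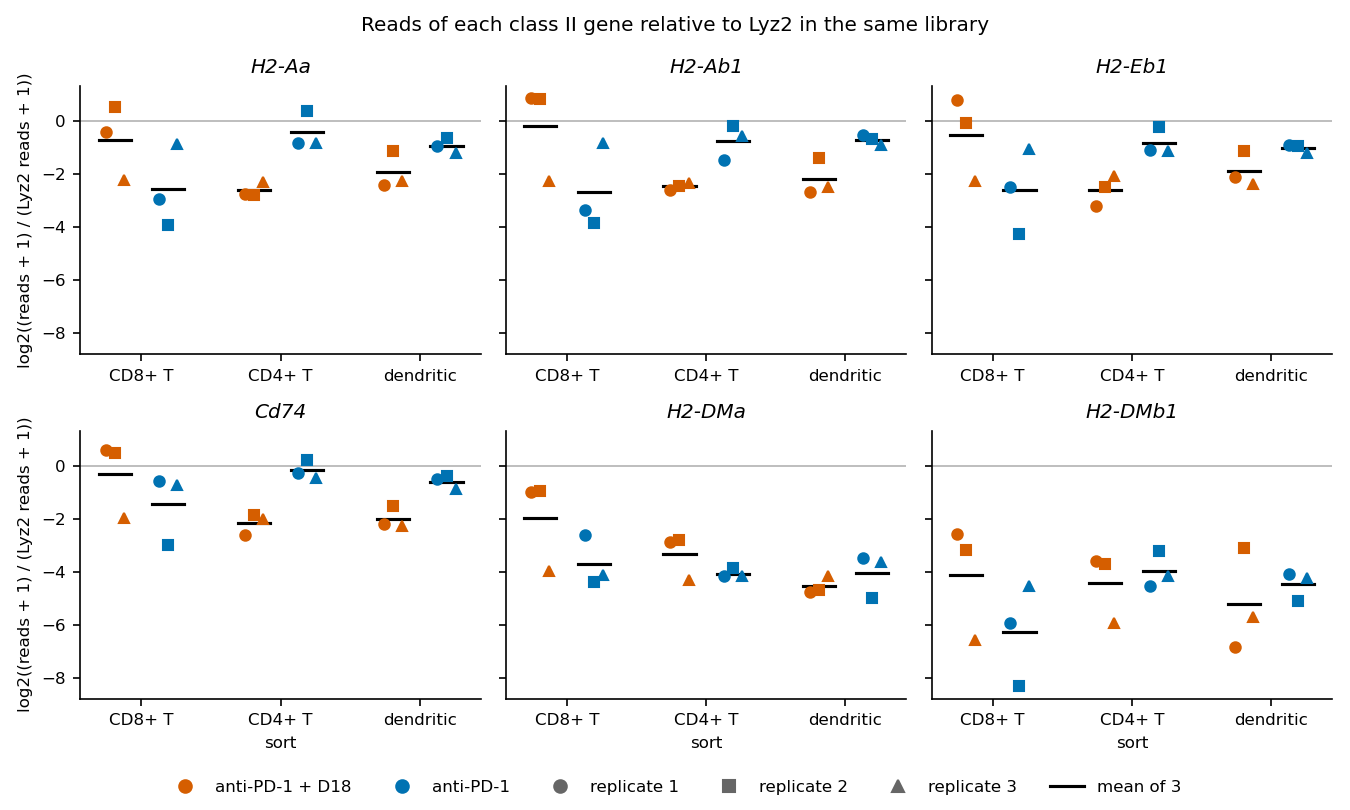
Log2 ratio of each class II gene to Lyz2 in the same library, with 1 read added to both, anti-PD-1 plus D18 left of anti-PD-1 in each sort and a bar at the mean of 3. In the CD4+ T cell sort the D18 libraries of H2-Aa, H2-Ab1, H2-Eb1 and Cd74 all lie below the anti-PD-1 libraries, while H2-DMa and H2-DMb1 overlap.

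H2-Aa, H2-Ab1, H2-Eb1 and Cd74 moved together from library to library. The ratio of H2-Aa to H2-Ab1 had an SD of 0.44 log2 units over the 18 libraries and a whole range of 3.80-fold, and that of H2-Aa to H2-Eb1 an SD of 0.44 as well. The SD was 0.61 for H2-Aa to Cd74. It was 1.09 for H2-Aa to H2-DMb1, 1.46 for H2-Aa to H2-DMa and 1.22 for H2-Aa to Lyz2, the last with a range of 21.7-fold. Across the 6 libraries of a sort, log2(CPM + 10) of H2-Aa and H2-Ab1 had r = 0.95 in the CD8+ T cell sort, 0.97 in the CD4+ T cell sort and 0.93 in the dendritic cell sort. H2-Aa and H2-DMa had 0.83, 0.07 and 0.66 in the same sorts, and H2-Aa and Lyz2 had 0.64, 0.62 and 0.50. The libraries share depth and cell make-up within a sort, so these values describe them and carry no test.

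For the 727 genes whose mean reached 10 in all 3 sorts, likeness to the mean level of H2-Aa, H2-Ab1 and Cd74 was taken as r over the 18 libraries, each centred within its sort. Leaving out the class II genes, Ccr1 was most alike with r = 0.85, a chemokine receptor of myeloid cells. Msr1, a scavenger receptor of macrophages, had 0.82. Tpd52, Ntpcr and Sdcbp followed with 0.76, 0.74 and 0.72, while the median of all 727 genes was -0.05. Lyz2 had r = 0.57 and rank 39, and H2-DMa had r = 0.43 and rank 88. The values for Msr1 were uneven, at 0.89, 0.92 and 0.26 within the CD8+ T, CD4+ T and dendritic cell sorts.

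**Figure D5:**
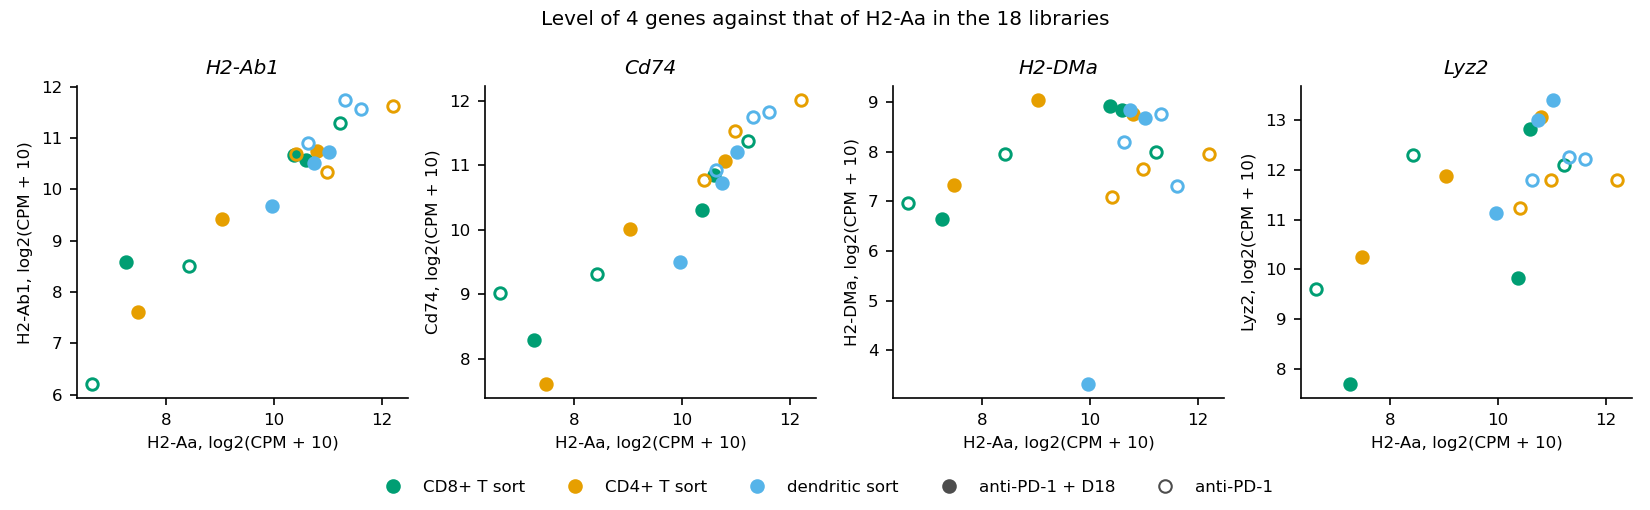
Level of H2-Ab1, Cd74, H2-DMa and Lyz2 against that of H2-Aa in the 18 libraries, all as log2(CPM + 10), with anti-PD-1 plus D18 as filled and anti-PD-1 as open circles. H2-Ab1 and Cd74 follow H2-Aa closely in all 3 sorts, while H2-DMa has r = 0.07 in the CD4+ T cell sort.

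Genes that serve class II outside the molecule itself were taken as lists. The processing list held 11 genes of endosomal proteolysis and class II turnover, and 7 were tested in each sort, 0 of them past the threshold. All 7 lay below 0 in each sort, at medians of -2.18, -1.38 and -1.31 in the CD8+ T, CD4+ T and dendritic cell sorts, against -0.03, 0.03 and -0.65 over all genes tested. Lgmn, an endosomal protease known to cut the invariant chain in human B cells, was lowest in each, at -3.13 ± 0.92, -2.56 ± 0.57 and -2.29 ± 0.73 (SE). Lgmn had 16, 24 and 76 reads, not scaled for depth, with D18 in the CD4+ T cell sort, against 433, 257 and 168 with anti-PD-1. These groups did not overlap. By normalised reads 2 of the 7 processing genes were lower with D18 without overlap in that sort, where 9.21% of all genes tested were. The next lowest were Ctsl, which trims the invariant chain in thymic epithelium, at -2.51 in the CD8+ T cell sort, Ctsh at -1.77 in the CD4+ T cell sort and Ifi30, a thiol reductase of endosomes, at -1.88 in the dendritic cell sort. The 2 highest were Ctsd at -0.72 and Ifi30 at -1.75 in the CD8+ T cell sort, Ctsd at -0.64 and Ctsb at -0.90 in the CD4+ T cell sort, and Ctsl at -0.61 and Ctss, which makes the last cut of the invariant chain in dendritic cells, at -1.15 in the dendritic cell sort. In the CD8+ T cell sort these genes thus lay below 0 where 4 of the 5 class II genes lay above it. Macrophages express these proteases too, and of 13 macrophage markers tested 12 lay below 0 in each sort. Their part was not tested.

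The transcription list held 17 genes of the class II promoter complex and of the routes to Ciita, with 6, 6 and 5 tested in the CD8+ T, CD4+ T and dendritic cell sorts and 0 past the threshold. Their medians were 0.33, 0.56 and -0.34. Spi1, a factor of myeloid cells and B cells that acts on Ciita, was lowest in each sort at -1.11, -0.71 and -0.96. Ifngr1, a chain of the interferon-gamma receptor, was highest in the CD4+ T cell sort at 1.16, next to Jak1, its kinase, at 1.10. Other values were Jak1 at 0.70 and Irf8 at -0.62 in the CD8+ T cell sort, Irf1 at 0.23 in the CD4+ T cell sort, and Irf8 at 0.42 and Ifngr1 at -0.69 in the dendritic cell sort.

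MHC class I genes, which every cell uses to show its own peptides, were taken for comparison. Of 6 listed, 5, 4 and 4 were tested and 0 passed, with medians of 0.03, 0.53 and -0.81 in the CD8+ T, CD4+ T and dendritic cell sorts. Tap1, a chain of the peptide transporter, was at 1.83 ± 0.90 in the CD4+ T cell sort and H2-D1 at 0.57, while B2m was at -0.44 and H2-K1 at 0.49. Nlrc5, the class I counterpart of Ciita, was at 1.21 and H2-D1 at -0.33 in the CD8+ T cell sort, where Tap1 was at 0.03 and B2m at -0.08. H2-D1 was at -1.03, B2m at -0.998, H2-K1 at -0.61 and Tap1 at -0.19 in the dendritic cell sort. Of 6 costimulation genes only Cd86, a ligand of CD28, was tested, at 0.14, -0.68 and -0.12.

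The other 5 class II genes had too few reads to be tested in any sort. H2-Ob, a chain of the H2-M inhibitor H2-O known from B cells, had 28, 2 and 3 reads with D18 and 0, 6 and 0 with anti-PD-1 in the dendritic cell sort. H2-Oa, its partner chain, had 1, 0 and 0 reads with D18 and 0, 18 and 0 with anti-PD-1 there. D18 replicate 1, the library with 28 reads of H2-Ob and 5 of Ciita, was also the one with reads of all 7 B cell markers, at a sum of 934 CPM, against 35.97 to 408 CPM in the other 5 dendritic cell libraries. Cd79a, a B cell receptor chain, had 34, 0 and 12 reads with D18 there and 0 in the 3 anti-PD-1 libraries. The part of B cells in the class II values was not tested.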

How the data were processed

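RNA of sorted cells was made into Smart-Seq2 libraries, which mark neither strand nor single molecules. Per the submitters' processing notes, the tools were STAR 2.4.0, HTSeq 0.6.1 and DESeq2, with build mm10. The authors deposited 1 table per sort with log2 values of normalised reads after a variance-stabilising transform that the labels do not name. Undoing it gave whole reads for 100% of values within 0.001. The depths of 11170 to 266392 reads limit precision, and limits for a count of 0 (3 reads, 95%) cover counting error only.

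Symbols matched 46488 gene IDs (98.9%). The test of changes was limma's (version 3.58.1, R 4.3.3, trend and robust) on log2(normalised reads + 1), tested first on simulated data. A negative-binomial count test was not run, since the deposited values are on a log2 scale. Ratios to Lyz2 were tested by exact permutation with numpy 2.4.6. Libraries were grouped by labelled sort, treatment and replicate, all 18 used. The replicate numbers come from the labels. The deviations of same-numbered libraries from their group means correlated at 0.36, 0.51 and 0.56 in the CD8+ T cell sort, where the numbers were taken to pair libraries. Alternatives were other scalings, tests, filters and pseudocounts, the replicate block, a batch term from mt-Co2, mt-Co3 and mt-Atp6 reads, and omission of libraries. Named genes are all 7 class II genes, the 2 highest and 2 lowest of each pathway list per sort, Lyz2 and the 5 genes most like H2-Aa, H2-Ab1 and Cd74; single genes of other lists were picked after their values were seen. An item that this rule names is not reported here. The 7 genes, lists and tests were chosen with earlier results of these data known.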

Additional observations from a re-analysis of the deposited data

How the results depend on the processing

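Depth is a limit, since several libraries hold fewer than 20 reads of a class II gene. Counts of genes called moved from 0 with the setting. In the CD8+ T cell sort they were 1 on the deposited log2 values, 22 without a filter, 20 with the replicate block and 1 in 1 fit of all 18 libraries, and 0 to 2 with a library left out. In the CD4+ T cell sort they were 29 without a filter and 34 without both libraries numbered 3, and 0 to 19 with a library left out, 19 without anti-PD-1 replicate 3. In the dendritic cell sort they were 1 after quantile normalisation and 71 with limma-voom, and 0 with any library left out. The replicate block gave 0 calls in the CD4+ T and dendritic cell sorts, where same-numbered libraries correlated at -0.20 to 0.15 and the block is not taken as pairing.

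Of 301 log2 changes recomputed, 275 kept their direction and side of the threshold. Passing in the CD4+ T cell sort without both libraries numbered 3 were H2-Aa at -4.24, Cd74 at -3.88, H2-Eb1 at -3.87 and H2-Ab1 at -3.37. Without a filter the same 4 genes passed at -2.69, -2.47, -2.28 and -2.22. The genes called in these settings were 34 of 966 and 29 of 14441. The changes of these 4 genes were smaller with limma-voom, at -1.53, -1.56, -1.19 and -0.91 in the same order. The median of all genes was 0.66 there, against 0.03 in the main fit. With a library left out the 4 changes ran over -3.59 to -1.89, -3.28 to -1.60, -3.27 to -1.33 and -3.01 to -1.49. They were lowest in size without anti-PD-1 replicate 2 for H2-Aa and without D18 replicate 1 for the other 3. Without both libraries numbered 3, Cd74 turned to 0.025 in the CD8+ T cell sort and H2-DMa to -0.51 in the CD4+ T cell sort. The batch term turned H2-Aa to -2.17, H2-Ab1 to -1.70, H2-Eb1 to -1.80 and H2-DMa to -0.20 in the CD8+ T cell sort, and H2-DMb1 to 0.081 in the CD4+ T cell sort. With limma-voom H2-DMa was at 0.27 in the dendritic cell sort. With a library left out, changes in the CD8+ T cell sort ran over -0.84 to 0.68 for Cd74, -0.58 to 1.92 for H2-Aa, -0.092 to 1.18 for H2-DMa, -0.11 to 2.06 for H2-Eb1 and -0.11 to 2.63 for H2-Ab1. H2-DMa ran over -0.26 to 0.69 in the CD4+ T cell sort and -2.23 to 0.47 in the dendritic cell sort.

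Of 180 ratios to Lyz2, 171 kept their direction. H2-DMb1 in the CD4+ T cell sort turned to 0.0066 with 10 reads added, 0.33 over the macrophage list and 0.23 without both libraries numbered 3, and ran over -0.85 to 0.32 with a library left out. In the dendritic cell sort the macrophage list turned H2-Eb1 to 0.059, H2-DMa to 0.42 and H2-DMb1 to 0.18, and 10 reads added turned H2-DMa to 0.25. H2-DMb1 ran there over -1.79 to 0.072 with a library left out. The cause of these turns was not tested.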

Other observations

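The ratio of H2-DMa to H2-Aa was picked after its values were seen and is given with no test. H2-DMa reads in the CD4+ T cell sort came to 90.0%, 100% and 24.1% of H2-Aa reads with D18, against 9.54%, 5.02% and 9.38% with anti-PD-1. In the CD8+ T cell sort they came to 62.5%, 36.1% and 29.2% with D18, against 129%, 71.4% and 10.2% with anti-PD-1. In the dendritic cell sort they came to 19.4%, 0% and 26.3% with D18, against 16.6%, 4.79% and 17.8% with anti-PD-1. The groups did not overlap in the CD4+ T cell sort, where 20.5% of 965 genes set against H2-Aa were likewise higher with D18 without overlap. The median log2 difference over those 965 genes was 2.74. H2-DMb1 came to 50%, 50% and 7.47% of H2-Aa reads with D18, against 7.24%, 7.98% and 9.38% with anti-PD-1, and overlapped. In that sort D18 replicates 1 and 2 rest on 9 and 16 reads of H2-DMa beside 10 and 16 of H2-Aa.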
